A study of Mus musculus with 4 samples.

Results

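A single gene can be transcribed from 1 start and still encode several proteins, because the spliced transcript may keep or skip an exon, shift a splice site or end in another last exon. Such genes were chosen here from RNA sequencing of mouse bone marrow neutrophils by counting rows in the deposited tables. A member had exactly 1 row in the table of transcription start site (TSS) groups. It also had several coding sequence (CDS) rows, at least 2 of them at 1 FPKM or more in WT or Srf KO cells. FPKM is the number of fragments scaled to transcript length and library size. The rule found 680 member genes of 20423 genes in the CDS table, and they hold 1656 coding sequences of its 24748. There were 489 members with 2 coding sequences, 123 with 3, 46 with 4 and 22 with more. Since the rule reads the same FPKM values that are compared below, the changes are a description, and no test was run on them.

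The cells were sorted from bone marrow as mature neutrophils gated as Gr1 high, 7/4 high and high in side scatter. The labels give 2 WT samples and 2 Srf KO samples, and Srf encodes serum response factor, a transcription factor that drives many actin cytoskeleton genes. The promoter of any Cre, the deleted exons, and the strain, age and sex of the mice are not given in the sources used here. Whether the samples of a genotype came from separate animals is not stated, so their spread may be technical. The deposited values are 1 per genotype and not 1 per sample, so read depth is unknown, groups cannot overlap or separate, and the spread between samples cannot be shown. Srf was measured at 13.7 FPKM in WT cells against 0.439 in Srf KO cells by the authors' deposited table (log2 fold -4.97 ± 0.27), and it is not a member. Log2 folds are given as Srf KO over WT throughout, followed by ± a standard error, which is the size of the fold divided by the size of the authors' statistic.

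Of 13 neutrophil markers 12 were in the gene table, and 5 of the 7 tested were called lower in Srf KO and 0 higher by the authors' deposited table. Camp, Ltf, Ngp, S100a8 and S100a9 are marked HIDATA, too many reads to quantify, so their listed zeros (in both genotypes for 4 of them, in Srf KO for Camp) are no measure of expression. Markers of other cell types moved the other way in the authors' deposited table. Higher calls were made for 9 of 10 tested markers of T and NK cells (summed FPKM 46.4 in WT and 108 in Srf KO) and for 4 of 8 of B cells (104 and 162). Erythroid markers were called higher for 5 of 8 (101 and 140), megakaryocyte and platelet markers for 6 of 8 (6.28 and 49.8) and macrophage markers for 7 of 8 (62.5 and 124, with 1 called lower). Over all genes tested 17.7% were called higher and 17.8% lower. Pf4 alone stood at 2.68 FPKM in WT and 39.2 in Srf KO. Hba-a1, at 87.2 and 92.9 FPKM, made up most of the erythroid sums and was not called. In RNA from a sorted population, a change of splicing within neutrophils and a change in the mix of cells that splice differently cannot be told apart. The part of these markers in the changes below was not tested.

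Splicing joins exons by recognising a donor site at the start and an acceptor site at the end of each intron. An exon flanked by weak sites may be included or skipped, and is then called a cassette exon. SR proteins and hnRNP proteins bound to the transcript promote or block its inclusion. When the number of bases in the optional segment is a multiple of 3, both forms keep the reading frame and differ by a block of amino acids. The capitals in the sequences that follow mark coding segments present in only 1 of the 2 coding sequences whose shares moved most, and the lower case letters are the 15 coding bases on either side. They were read from GENCODE M21 transcripts (GRCm38, the assembly of mm10), paired with the RefSeq transcripts in the files, and are written 5′ to 3′ on the strand of the gene, with exons numbered along the GENCODE transcript.

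The first set holds optional exons of members where the authors' deposited table called the coding sequence with the exon lower and the one without it higher in Srf KO. Exon 4 of Ikzf1 at chr11:11748311-11748571 on the plus strand holds 261 bases and encodes the first zinc finger of Ikaros. Exon 6 of Ets1 at chr9:32738099-32738359 on the plus strand, also 261 bases, lies in the part that inhibits DNA binding by the full-length factor. Exon 2 of Prok2 at chr6:99722509-99722634 on the minus strand holds 126 bases of a secreted peptide. Exon 12 of Agap1 at chr1:89766306-89766464 on the plus strand holds 159 bases, and exon 3 of Rcsd1 at chr1:165663566-165663655 on the minus strand holds 90 bases.
Ikzf1: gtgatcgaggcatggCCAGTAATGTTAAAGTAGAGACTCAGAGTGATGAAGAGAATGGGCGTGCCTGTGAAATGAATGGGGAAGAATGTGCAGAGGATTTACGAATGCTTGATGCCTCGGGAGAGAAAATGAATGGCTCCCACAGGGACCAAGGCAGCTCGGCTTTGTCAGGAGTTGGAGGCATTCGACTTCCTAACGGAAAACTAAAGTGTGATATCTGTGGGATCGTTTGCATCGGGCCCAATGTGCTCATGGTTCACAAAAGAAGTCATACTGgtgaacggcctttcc
Ets1: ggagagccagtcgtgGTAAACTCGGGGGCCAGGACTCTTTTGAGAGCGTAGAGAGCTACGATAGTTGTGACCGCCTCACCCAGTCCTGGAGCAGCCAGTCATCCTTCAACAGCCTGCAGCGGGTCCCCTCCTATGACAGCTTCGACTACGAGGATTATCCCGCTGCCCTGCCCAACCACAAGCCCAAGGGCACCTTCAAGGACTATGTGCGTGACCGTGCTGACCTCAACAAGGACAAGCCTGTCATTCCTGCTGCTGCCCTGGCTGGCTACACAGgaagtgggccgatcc
Prok2: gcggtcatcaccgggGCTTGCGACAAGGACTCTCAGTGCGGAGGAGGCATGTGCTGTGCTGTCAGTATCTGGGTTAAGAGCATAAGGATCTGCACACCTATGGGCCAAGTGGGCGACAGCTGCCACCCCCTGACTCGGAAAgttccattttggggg
Agap1: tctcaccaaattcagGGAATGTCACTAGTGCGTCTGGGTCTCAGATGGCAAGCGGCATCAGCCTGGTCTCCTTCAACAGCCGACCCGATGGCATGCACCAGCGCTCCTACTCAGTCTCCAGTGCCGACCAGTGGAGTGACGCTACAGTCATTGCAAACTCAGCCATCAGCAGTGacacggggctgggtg
Rcsd1: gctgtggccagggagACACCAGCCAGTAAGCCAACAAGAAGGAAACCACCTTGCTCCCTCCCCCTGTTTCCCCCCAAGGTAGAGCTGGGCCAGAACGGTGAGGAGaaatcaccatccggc

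The second set shows segments of other sizes and directions. Tfe3 exon 5 at chrX:7767893-7767997 on the plus strand (105 bases), Mlx exon 3 at chr11:101088236-101088325 on the plus strand (90 bases) and Irak2 exon 3 at chr6:113665703-113665846 on the plus strand (144 bases) are cassette exons whose coding sequence lost share. In Atp6v0a1 the 18-base exon 19 at chr11:101049459-101049476 on the plus strand belongs to the coding sequence that gained share. In Itgam 3 bases at chr7:128101634-128101636 on the plus strand come from a shifted acceptor. The pyruvate kinase gene Pkm2 has a pair of exons of 167 bases each that replace one another, at chr9:59675029-59675195 (M1) and chr9:59675568-59675734 (M2) on the plus strand, shown because their shares moved little.
Tfe3: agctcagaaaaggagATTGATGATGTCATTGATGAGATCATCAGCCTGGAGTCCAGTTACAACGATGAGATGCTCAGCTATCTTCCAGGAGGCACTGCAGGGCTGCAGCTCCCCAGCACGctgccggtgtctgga
Mlx: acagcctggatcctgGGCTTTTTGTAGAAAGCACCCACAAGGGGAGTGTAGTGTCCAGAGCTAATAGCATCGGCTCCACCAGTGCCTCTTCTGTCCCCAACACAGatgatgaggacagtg
Irak2: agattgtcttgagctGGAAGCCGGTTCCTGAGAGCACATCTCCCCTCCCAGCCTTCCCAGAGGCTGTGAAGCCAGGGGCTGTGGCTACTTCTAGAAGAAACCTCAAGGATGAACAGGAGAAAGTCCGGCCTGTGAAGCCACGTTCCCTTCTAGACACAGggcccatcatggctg
Atp6v0a1: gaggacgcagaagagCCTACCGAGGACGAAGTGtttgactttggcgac
Itgam: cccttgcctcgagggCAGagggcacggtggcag
Pkm2 M1 exon: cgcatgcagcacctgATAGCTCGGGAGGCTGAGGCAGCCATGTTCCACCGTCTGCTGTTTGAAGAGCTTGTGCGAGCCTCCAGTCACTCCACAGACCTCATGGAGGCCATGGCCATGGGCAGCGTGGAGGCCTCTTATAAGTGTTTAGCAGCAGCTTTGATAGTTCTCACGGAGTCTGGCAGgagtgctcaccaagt
Pkm2 M2 exon: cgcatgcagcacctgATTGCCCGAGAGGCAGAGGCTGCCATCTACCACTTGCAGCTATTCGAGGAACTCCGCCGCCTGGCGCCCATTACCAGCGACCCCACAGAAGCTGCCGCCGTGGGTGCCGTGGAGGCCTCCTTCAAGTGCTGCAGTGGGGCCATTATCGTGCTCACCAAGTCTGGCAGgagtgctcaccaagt

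The share of a coding sequence is its FPKM as a percent of the summed CDS FPKM of the gene, computed in each genotype. The largest change of share in a member had a median of 8.99 percentage points, with quartiles of 3.82 and 21.2 and a range from 0.00731 to 99.97. Changes of 10 points or more were seen in 317 members (46.6%) and of 20 points or more in 183 (26.9%), while 227 members stayed under 5 points. By the summed FPKM of the gene, changes were smaller in abundant members. Over the 576 members with a summed CDS FPKM of at least 5 in both genotypes the median was 7.89 points, and over the 226 members at 20 FPKM or more it was 6.10 points, with 84 of them (37.2%) at 10 points or more. Where 2 coding sequences each had to reach 5 FPKM in a genotype the share went the other way, with 159 of 300 members (53%) at 10 points or more. No error can be given for a share, since the files hold no value per sample and no covariance of coding sequences.

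**Figure D1:**
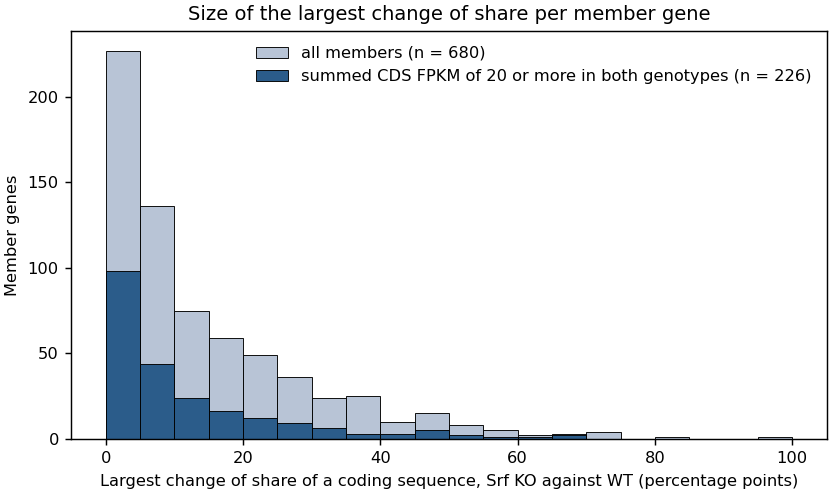
Number of member genes (y axis) by the largest change of share of a coding sequence between WT and Srf KO, in percentage points (x axis, bins of 5). Pale bars are all 680 members and dark bars the 226 with a summed CDS FPKM of 20 or more in both genotypes, whose median of 6.10 points lies below the 8.99 of all members.

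The most abundant coding sequence was a different one in Srf KO than in WT in 146 members (21.5%), in 109 of those at 5 FPKM and in 35 of those at 20 FPKM. The leading coding sequence held a median of 74.1% of the gene in WT and 71.7% in Srf KO. The leading share, of whichever coding sequence led in that genotype, was higher in WT in 334 members and higher in Srf KO in 346. Genes with several starts that met the same FPKM minimum, 419 of them, had a median change of 11.7 points and 234 (55.8%) at 10 points or more, and that difference from the members was not tested. Of the 1523 member coding sequences at 1 FPKM or more in some genotype, 1262 reached it in both, 146 in WT alone and 115 in Srf KO alone.

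The authors tested 1462 of the 1656 coding sequences, and 164 marked NOTEST and 30 marked FAIL carry no call. At an adjusted p of at most 0.05 the authors' deposited table called 277 of the 1462 (18.9%), against 30.2% of all coding sequences tested. It called 85 higher in Srf KO (5.81%, against 14.4% of all) and 192 lower (13.1%, against 15.8% of all). Of 670 member genes tested as a whole, 232 were called in the authors' deposited table (34.6%, against 35.5% of all genes tested). Of these, 63 were higher (9.40% of the member genes, against 17.7% of all) and 169 lower (25.2% of the member genes, against 17.8% of all). The rule used this contrast, so nothing is read from these shares. In 85 members a coding sequence was called while the gene was not, and in 77 the gene was called and no coding sequence. Of the 317 members with a change of 10 points or more, 217 carried no call as genes, a count that includes genes marked FAIL. It is not comparable with the 34.6% called of the 670 tested, and nothing is read from it. In 238 of the 317 the coding sequence that gained most share was higher in FPKM and the one that lost most was lower. Both were picked from these same FPKM values, so opposite directions are partly built in and nothing is read from that count.

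The precision of the 2 levels differed. The implied standard error of a log2 fold had a median of 0.47 over 1434 member coding sequences (quartiles 0.30 and 1.14), and 395 of them (27.5%) were above 1. For the same genes as a whole the median was 0.23 (n = 670), and for coding sequences of genes that have only 1 it was 0.23 as well (n = 9333). The smallest absolute log2 fold called among member coding sequences in the authors' deposited table was 0.48. Of the 317 members with a change of 10 points or more, the coding sequence that changed most was tested in 273 and called in 69. The authors' deposited table called 18.9% of member coding sequences tested and 30.2% of all coding sequences tested. The coding sequence that changed most was picked from these same FPKM values, so nothing is read from that count.

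**Figure D2:**
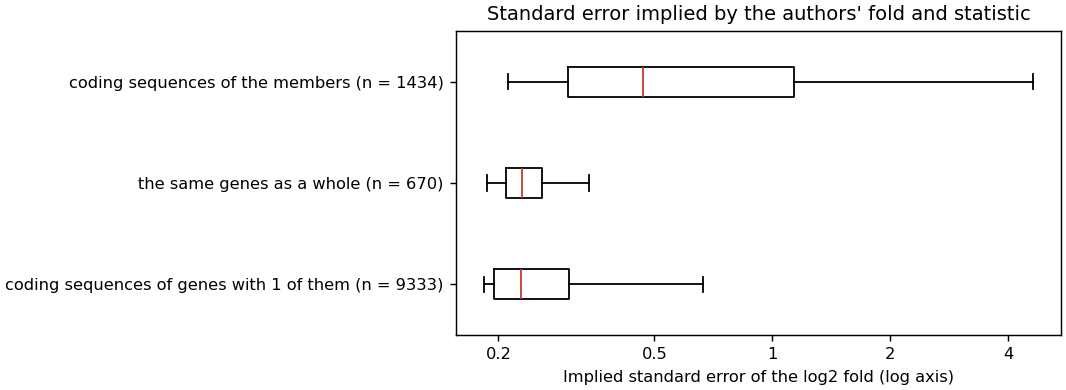
Implied standard error of the log2 fold (x axis, log scale) for coding sequences of the members, for the same genes as a whole and for coding sequences of genes with 1 of them. Boxes span the quartiles with the median in red and whiskers the 5th to 95th percentiles. The member coding sequences have a median of 0.47 and the other groups 0.23.

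In 12 members (1.76% of 680) the authors' deposited table called coding sequences of the same gene in opposite directions. At an adjusted p of at most 0.01 this held for 4 (0.588%). No such count is given here for other genes. The 10 of the 12 with the largest change of share were Agap1, Cdc14a, Cnot2, Ets1, Ikzf1, Prok2, Rbm18, Rcsd1, Ss18 and Trim30d. Of these 10, Agap1 was also called as a gene, lower, and the other 9 were not.

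**Figure D3:**
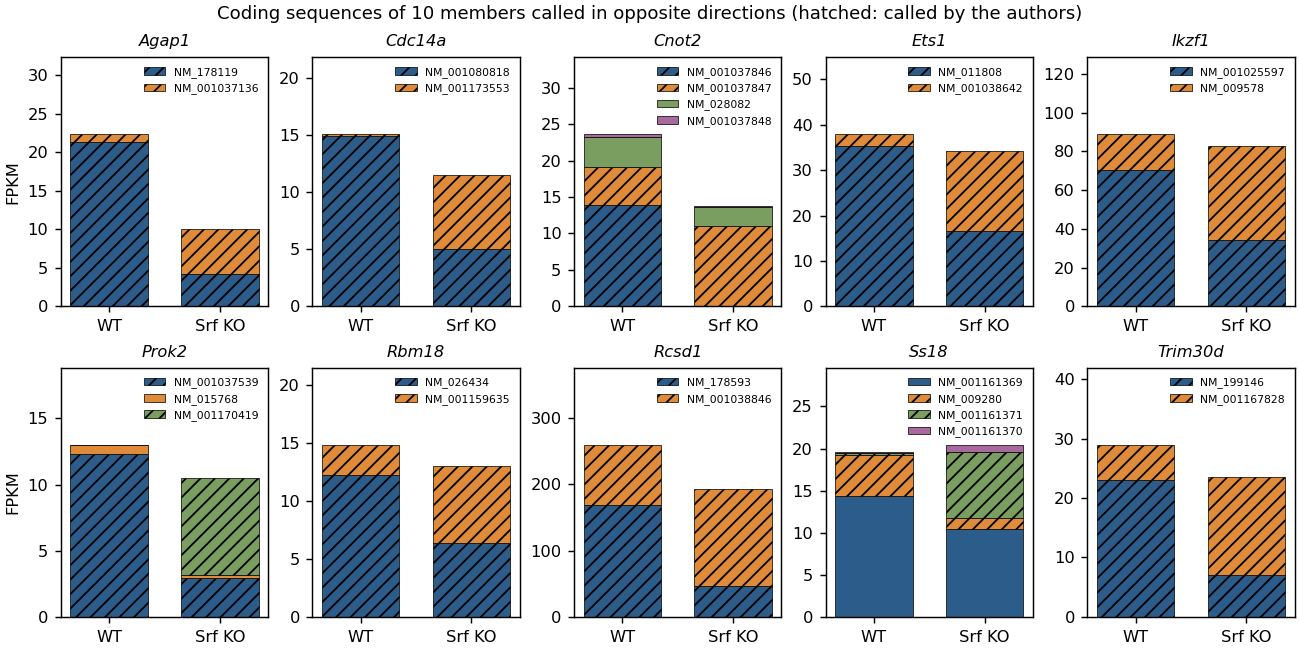
FPKM (y axis) of each coding sequence, named by its RefSeq transcript, stacked for WT and Srf KO in the 10 members with the largest change of share among those with coding sequences called in opposite directions. Hatched bars were called by the authors. The total of Ikzf1 moved little (88.8 and 83.0 FPKM) while its lower, blue segment went from 70.7 to 34.1 FPKM.

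Transcription factors and chromatin proteins gave 22 members, with a median largest change of 12.2 points. Of them 13 reached 10 points and 8 had a different leading coding sequence, and of 57 coding sequences tested 5 were called higher and 6 lower by the authors' deposited table. Each list's calls stand beside 14.4% higher and 15.8% lower over all coding sequences tested, and its median beside the 8.99 points of all members. Ikzf1, the gene of the lymphoid and myeloid regulator Ikaros, is outside the list and is named for its opposite calls. Its 515-codon form with the exon shown above went from 70.7 FPKM in WT to 34.1 in Srf KO (log2 fold -1.05 ± 0.35, adjusted p = 0.0130 in the authors' deposited table). Its 428-codon form without the exon rose from 18.1 to 48.9 FPKM (1.43 ± 0.34, adjusted p = 0.000286 in the authors' deposited table). The share of the longer form was thus 79.6% in WT and 41.1% in Srf KO, and the gene as a whole was not called (-0.10 ± 0.21, adjusted p = 0.755 in the authors' deposited table).

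Ets1, an ETS family factor of lymphocytes and other cells, moved in the same way. The 440-codon form fell from 35.3 to 16.5 FPKM (-1.10 ± 0.24, adjusted p = 5.53e-05) and the 353-codon form rose from 2.54 to 17.7 FPKM (2.80 ± 0.90, adjusted p = 0.00972) in the authors' deposited table. The skipped form made up 6.70% of the gene in WT and 51.7% in Srf KO, at nearly the same total (37.8 and 34.2 FPKM). T and NK cell markers were higher in Srf KO as well (summed FPKM 46.4 and 108), and their part in the values of Ikzf1 and Ets1 was not tested.

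Tfe3, the gene of a factor that activates lysosomal genes, had its 572-codon form fall from 33.6 to 8.66 FPKM (-1.96 ± 0.47, adjusted p = 0.000324 in the authors' deposited table). Its 537-codon form stood at 5.05 and 21.6 FPKM, which did not pass (2.10 ± 2.64, adjusted p = 0.601 in the authors' deposited table). Mlx encodes a dimer partner of the glucose-responsive MondoA and ChREBP factors. Its form without the 90-base exon rose from 2.24 to 24.4 FPKM (3.45 ± 0.67, adjusted p = 4.74e-06 in the authors' deposited table), going from 5.65% to 54.2% of the gene. Atf2, of the CREB family, was level as a gene at 14.94 and 14.96 FPKM, while its 447-codon form stood at 10.4% in WT and 51.8% in Srf KO without a call. The 487-codon form of Atf2 was untested. Arid4b, a chromatin protein gene, stood at 0.0622% and 52.4% for its shorter form, but its rows are marked FAIL and carry no error. Ss18, a SWI/SNF complex subunit gene, had a 313-codon form rise from 0.315 to 7.80 FPKM (4.63 ± 1.26, adjusted p = 0.00191) and a 418-codon form fall from 4.76 to 1.34 FPKM (-1.83 ± 0.63, adjusted p = 0.0172) in the authors' deposited table.

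Immune receptors and inflammatory genes gave 21 members with a median change of 3.81 points. Of them 9 reached 10 points, and of 44 coding sequences tested 2 were called higher and 11 lower by the authors' deposited table.

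Csf3r, the receptor gene for the neutrophil growth factor G-CSF, had the largest change among members at 20 FPKM or more. One coding sequence fell from 481 to 22.3 FPKM (-4.43 ± 1.12, adjusted p = 0.000676) while the other stood at 128 and 189 FPKM (0.56 ± 1.82, adjusted p = 0.865) in the authors' deposited table. A shift of 68.4 points resulted, but both map to the same coding intervals in GENCODE, so what separates them was not resolved, and the gene as a whole fell (-1.47 ± 0.22 in the authors' deposited table). The coding sequences of Csf3r sum to 609 and 212 FPKM against 687 and 248 for the gene, so its shares leave out part of the signal, and 18 members sum to under 90 percent of the gene in a genotype. Irak2 encodes a kinase-like adaptor of Toll-like and interleukin 1 receptors. Its form with the 144-base exon stood at 13.9 and 1.91 FPKM (-2.86 ± 2.45, adjusted p = 0.406 in the authors' deposited table) and the form without it at 6.99 and 10.1 FPKM, untested. Ceacam1 and Cd72, an adhesion molecule gene and a B cell coreceptor gene, had changes of 30.3 and 25.5 points. No coding sequence of Ceacam1 was called in the authors' deposited table. The 354-codon form of Cd72, which moved by those 25.5 points, was untested. Its 300-codon form rose from 1.57 to 5.89 FPKM (1.91 ± 0.68, adjusted p = 0.0206 in the authors' deposited table). The reads of Ceacam1 may be shared with its close relative Ceacam2, and 4 other genes share its locus.

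Prok2, the gene of a small secreted chemoattractant made by myeloid cells, had the largest change among members called in opposite directions. The 107-codon form, which holds exon 2, fell from 12.3 to 2.91 FPKM (-2.08 ± 0.37, adjusted p = 4.81e-07) in the authors' deposited table. The 65-codon form without it was listed at 0 in WT and 7.37 FPKM in Srf KO and was called (adjusted p = 1.62e-10 in the authors' deposited table), with no fold given. A 128-codon form, at 0.668 FPKM in WT and 0.239 in Srf KO, was not called. The total was 13.0 FPKM in WT and 10.5 in Srf KO, and the gene was not called.

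Kinases, phosphatases and GTPase regulators gave 19 members, with a median change of 16.1 points and 11 at 10 points or more. Of 45 coding sequences tested 2 were called higher and 5 lower, and of the 19 genes 1 was called higher and 9 lower, by the authors' deposited table, against 14.4% and 15.8% of all coding sequences and 17.7% and 17.8% of all genes. Lyn encodes a Src family kinase of myeloid and B cells. Its LynA form fell from 111 to 39.7 FPKM (-1.49 ± 0.27, adjusted p = 1.43e-06), while LynB stood at 58.3 and 70.2 FPKM (0.27 ± 0.28, adjusted p = 0.506), in the authors' deposited table. LynA was thus 65.6% of the gene in WT and 36.1% in Srf KO. Inpp5d, the gene of the inositol phosphatase SHIP1, had its 1191-codon form fall from 35.98 to 7.42 FPKM (-2.28 ± 0.88, adjusted p = 0.0340 in the authors' deposited table). Its 1130-codon form, which lacks a 183-base segment, stood at 16.2 and 14.2 FPKM.

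Vav1, the gene of a guanine nucleotide exchange factor of blood cells, shifted by 29.5 points and Rap1gds1 by 43.0 points, each with no coding sequence called. The 607-codon form of Rap1gds1, at 28.9 FPKM in WT and 12.7 in Srf KO, was untested. The kinase gene Tec had 1 coding sequence fall from 11.6 to 4.18 FPKM (-1.48 ± 0.29, adjusted p = 9.96e-06 in the authors' deposited table) and the other at 3.73 and 4.52 FPKM. Cdc14a, a dual-specificity phosphatase gene outside the list, had its 603-codon form fall from 14.98 to 4.997 FPKM (-1.58 ± 0.25, adjusted p = 1.29e-08) and its 554-codon form rise from 0.0951 to 6.48 FPKM (6.09 ± 2.16, adjusted p = 0.0203) in the authors' deposited table.

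Actin cytoskeleton and adhesion genes, a class with known SRF targets, gave 16 members with a median change of 4.28 points. Of 41 coding sequences tested 0 were called higher and 8 lower, and of the 16 genes 11 were called lower and 0 higher, by the authors' deposited table. Over all features tested 14.4% of coding sequences were higher and 15.8% lower, and 17.7% of genes higher and 17.8% lower. A single member of the 16 had a different leading coding sequence, Arhgap4, a GTPase-activating protein gene of blood cells. Its form with a 63-base exon stood at 116 FPKM in WT and 29.6 in Srf KO, marked NOTEST, and its form without it at 48.9 and 78.97 FPKM (0.69 ± 1.18, adjusted p = 0.718 in the authors' deposited table). Arpc4, a subunit gene of the Arp2/3 complex that nucleates branched actin, had its full form fall from 148 to 97.6 FPKM (-0.60 ± 0.21, adjusted p = 0.0184 in the authors' deposited table) and its share was 94.6% in WT and 79.1% in Srf KO.

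Rcsd1 encodes CapZIP, which binds the actin capping protein, and is outside that list. Its 412-codon form fell from 168 to 46.3 FPKM (-1.86 ± 0.34, adjusted p = 9.51e-07) and its 382-codon form rose from 90.7 to 147 FPKM (0.70 ± 0.27, adjusted p = 0.0358) in the authors' deposited table. The gene was not called, at 259 and 193 FPKM. Mical1, whose enzyme oxidises actin filaments, exchanged 51.0 points without a call. Cdc42, the gene of a small GTPase that steers cell polarity, has a pair of alternative last coding exons of 87 bases each. Its main form held 97.7% in WT and 98.5% in Srf KO, a change of 0.81 points. In Itgam, the integrin alpha M gene, the form without the 3 bases shown above stood at 58.6% and 72.3%. That form was not called (-0.43 ± 0.27, adjusted p = 0.219 in the authors' deposited table). The form with the 3 bases, at 288 and 116 FPKM, was untested. The gene as a whole was called lower (-0.73 ± 0.26, adjusted p = 0.0177 in the authors' deposited table).

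Membrane traffic and lysosome genes gave 17 members with a median change of 14.7 points, 11 of them at 10 points or more. Of 42 coding sequences tested 1 was called higher and 10 lower by the authors' deposited table. Agap1, the gene of an Arf GTPase-activating protein of endosomes, had its 857-codon form fall from 21.4 to 4.18 FPKM (-2.35 ± 0.25, adjusted p listed as 0) and its 804-codon form rise from 0.936 to 5.80 FPKM (2.63 ± 0.68, adjusted p = 0.000910) in the authors' deposited table. The gene fell as well (-1.16 ± 0.21, adjusted p = 4.59e-07 in the authors' deposited table), and its locus holds 1 other gene. Rab11fip1, a recycling endosome adaptor gene, had its 1166-codon form fall from 21.4 to 3.33 FPKM (-2.68 ± 0.32, adjusted p listed as 0 in the authors' deposited table) while its 645-codon form stood at 12.8 and 12.2 FPKM. A single exon of 1563 bases separates them.

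Dnm2, the gene of the membrane-cutting GTPase dynamin 2, had 2 of 4 coding sequences called lower in the authors' deposited table, and the share of an untested one went from 6.98% to 34.2%. Gga3, a Golgi adaptor gene, moved by 35.9 points without a call. Sec24c, which encodes a cargo adaptor of COPII vesicles and is outside the list, had its main form fall from 33.4 to 7.44 FPKM (-2.17 ± 0.32, adjusted p = 9.36e-10 in the authors' deposited table). Its other form stood at 4.94 and 20.6 FPKM (2.06 ± 1.68, adjusted p = 0.377 in the authors' deposited table). Golph3l, a Golgi protein gene, had a 280-codon form rise from 2.12 to 6.06 FPKM (1.52 ± 0.41, adjusted p = 0.00179 in the authors' deposited table).

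Splicing and RNA processing genes gave 28 members, the most of any list, with a median change of 7.55 points. Of 65 coding sequences tested 5 were called higher and 0 lower by the authors' deposited table. Srsf1, an SR protein gene, had its standard form at 23.0 and 38.7 FPKM (0.75 ± 0.31, adjusted p = 0.0557 in the authors' deposited table) and its share at 75.3% and 91.1%. In Srsf7 a coding sequence listed at 0 in WT stood at 6.37 FPKM in Srf KO and was called (adjusted p = 0.000293 in the authors' deposited table). Another Srsf7 coding sequence with the same coding intervals in GENCODE stood at 2.95 FPKM in WT and 5.69 in Srf KO. What separates these coding sequences was not resolved. Syncrip, an hnRNP gene, had its 562-codon form rise from 6.33 to 10.7 FPKM (0.76 ± 0.22, adjusted p = 0.00313 in the authors' deposited table). Tia1, a splicing and stress granule protein gene, and Cpsf7, a cleavage factor gene, moved by 22.8 and 18.9 points without a call. The coding sequences of Cpsf7 have the same coding intervals in GENCODE, so what separates them was not resolved. Outside the list, Cnot2, the gene of a deadenylase scaffold, had a coding sequence at 14.0 FPKM in WT and listed at 0 in Srf KO, and another rise from 5.11 to 11.0 FPKM (1.11 ± 0.44, adjusted p = 0.0407) in the authors' deposited table. Its 2 coding sequences and those of the RNA-binding protein gene Rbm18 have the same coding intervals in GENCODE, and the coding sequences of Cnot2 sum to 13.8 FPKM in Srf KO against 22.8 for the gene.

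Translation and protein folding genes gave 9 members with a median change of 2.59 points, and of 24 coding sequences tested 4 were called higher and 0 lower by the authors' deposited table. Eif4a2, a helicase gene of translation initiation, had its 312-codon form rise from 6.97 to 39.3 FPKM (2.50 ± 0.63, adjusted p = 0.000633 in the authors' deposited table). Its 407-codon form stood at 69.8 and 12.1 FPKM, untested, and 3 other genes share the locus. Rps24, a ribosomal protein gene, kept its main form at 96.9% in WT and 95.9% in Srf KO. That form rose from 308 to 620 FPKM (1.01 ± 0.19, adjusted p = 4.34e-06 in the authors' deposited table).

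Metabolic and mitochondrial genes gave 9 members with a median change of 3.90 points, and of 18 coding sequences tested 0 were called higher and 1 lower by the authors' deposited table. The one called was the 1101-codon form of Acly, the gene of ATP citrate lyase, which fell from 28.3 to 14.5 FPKM (-0.97 ± 0.28, adjusted p = 0.00304 in the authors' deposited table). The form without the 30-base exon stood at 26.0 and 22.7 FPKM. Pkm2 was the most abundant member, with 1054 FPKM in WT and 635 in Srf KO. Its M2 form held 80.6% in WT and 84.9% in Srf KO, so the exchange of the paired exons shown above moved by 4.33 points while the gene fell (-0.73 ± 0.20, adjusted p = 0.00202 in the authors' deposited table). Opa1, a mitochondrial fusion gene, had its form with a 54-base exon at 15.2% and 31.5%, with no call.

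Apoptosis and cell cycle genes gave 12 members with a median change of 9.54 points, and of 26 coding sequences tested 4 were called higher and 1 lower by the authors' deposited table. Cdk2, a kinase gene of S phase entry, had its 298-codon form rise from 26.7 to 48.8 FPKM (0.87 ± 0.23, adjusted p = 0.00113) while its 346-codon form stood at 17.2 and 13.0 FPKM (-0.40 ± 0.39) in the authors' deposited table. The spindle gene Nusap1 had its 394-codon form rise from 3.30 to 9.45 FPKM (1.52 ± 0.49, adjusted p = 0.0106 in the authors' deposited table). Cdk10 and Bclaf1 shifted by 33.0 and 10.1 points with no call, and the 917-codon form of Bclaf1, which moved by those 10.1 points, was untested. The 9 lists together hold 153 members, and 527 members are in none.

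Several of the members with the largest changes carry no usable error. Of the 15 largest among members at 5 FPKM or more, 2310021P13Rik (81.2 points), Arid4b (52.3) and Sun2 (51.4) are among those marked FAIL. Sun2 encodes a nuclear envelope protein that links to the cytoskeleton, and one of its forms stood at 157 FPKM in WT and 0.0161 in Srf KO. H2-Q7 (74.3 points) and Ceacam2 (65.6), also of the 15, and Trim30d (49.7) belong to families of near-identical genes, so their reads cannot be assigned with certainty. Trim30d, a TRIM family gene, had one form fall from 23.0 to 7.05 FPKM (-1.71 ± 0.28, adjusted p = 3.58e-08) and the other rise from 5.88 to 16.5 FPKM (1.49 ± 0.53, adjusted p = 0.0196) in the authors' deposited table.

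The kind of coding difference was read from GENCODE structures for the pair of coding sequences that gained and lost most share. It could be classified for 619 members, of which 48 had the same coding intervals for both and 571 had 2 distinct structures. Cassette exons accounted for 162 members, different carboxyl ends for 177, shifted splice sites for 106, several internal segments for 76, different amino ends for 37, retained introns for 9 and both ends for 4. The 353 members with only internal differences share both ends, so the difference is a multiple of 3 bases by the way the class is defined. The median largest change was 12.5 points for cassette exons, 21.2 for different amino ends, 6.97 for shifted splice sites and 6.36 for different carboxyl ends. The 45 splice site shifts of 3 bases, as in Itgam, had a median of 5.10 points.

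In members with a change of 10 points or more, the shorter coding sequence mostly gained share in Srf KO. Among 272 such members with distinct structures the shorter one gained in 210 and the longer in 61, with 1 of equal length. Among cassette exons the coding sequence without the exon gained in 90 members and the one with it in 6. Several internal segments gave 38 and 4, shifted splice sites 32 and 12, different amino ends 16 and 4, and retained introns 6 and 0. Different carboxyl ends went the other way in count, with 27 for the shorter and 34 for the longer. The split was 169 and 47 where the authors tested both coding sequences, and 160 and 49 where no other gene shares the locus. By the gene's call in the authors' deposited table it was 150 and 37 without a call and 49 and 14 where the gene was called lower. Among the 21 members whose gene was called higher it was 11 and 10. In members with a change under 10 points the shorter gained in 169 and the longer in 119.

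**Figure D4:**
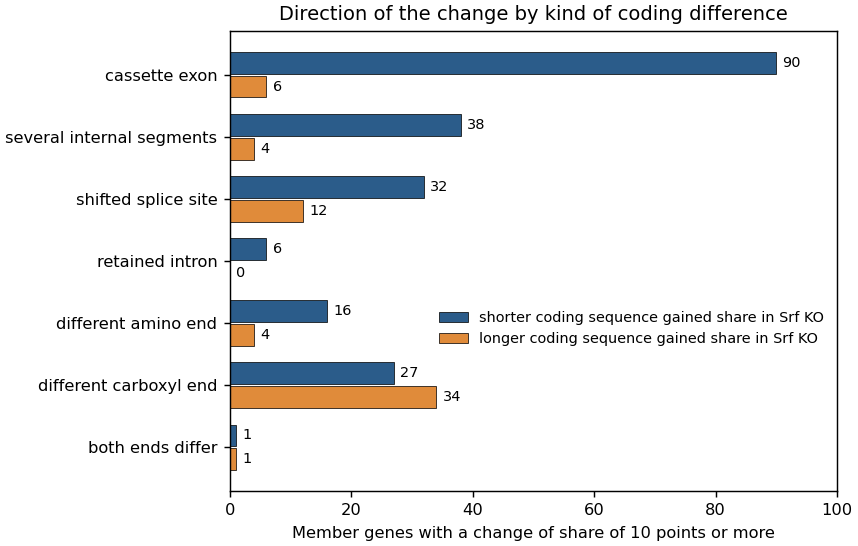
Number of member genes with a change of share of 10 points or more (x axis) in which the shorter (blue) or the longer (orange) coding sequence gained share in Srf KO, by kind of coding difference. Cassette exons split 90 against 6, different carboxyl ends 27 against 34.

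Over all 162 cassette exons, whatever the size of the change, inclusion was the share of the form with the exon within the pair. Its median was 52.4% in WT and 33.5% in Srf KO, and it was lower in Srf KO in 133 and higher in 29. Among the 76 exons included at 50% or less in WT, 55 were lower and 21 higher in Srf KO. The exons had a median size of 96 bases, from 12 to 2019. The 6 that were included more in Srf KO by 10 points or more of share were in Atp6v0a1, Axl, Clec4b1, Ddhd1, Mink1 and Opa1, of which Axl, Clec4b1, Ddhd1 and Mink1 fall outside the rule for named genes. Axl is also on the macrophage marker list, which was higher in Srf KO. In Atp6v0a1, a proton pump subunit gene, the form with the 18-base exon stood at 2.33 and 6.15 FPKM (1.40 ± 2.20, adjusted p = 0.688 in the authors' deposited table).

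**Figure D5:**
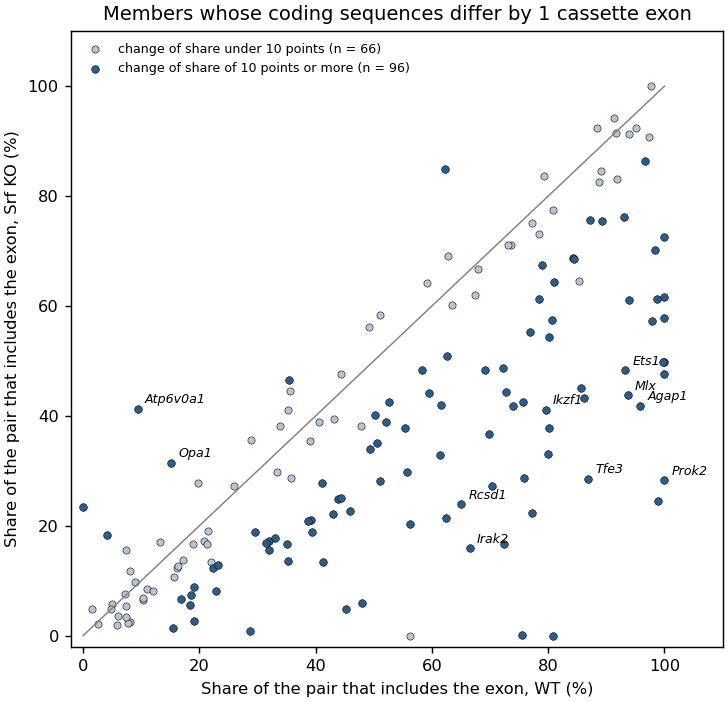
Share of the pair of coding sequences that includes the cassette exon, in percent, in WT (x axis) and Srf KO (y axis) for 162 members. Each point is a gene, dark where a share of the gene changed by 10 points or more, and the line marks equal inclusion. Below the line lie 133 genes, and Atp6v0a1 and Opa1 are among the 29 above it.

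A difference by length was also present among genes listed with only 1 coding sequence. These genes were divided by the length of that coding sequence. Those of 62 to 933 coding bases had a median log2 fold of 0.23 (n = 2430), those of 936 to 1680 a median of 0.02 (n = 2423), and those of 1683 to 16764 a median of -0.25 (n = 2427). These groups hold fewer than the 9333 such coding sequences that have an implied standard error. The authors' deposited table called 594 higher and 236 lower among the shortest, and 219 higher and 780 lower among the longest. Over all coding sequences tested it called 14.4% higher and 15.8% lower. The part of this trend in the direction of the share changes was not tested.

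Just inside the 1 FPKM minimum, the second coding sequence of Gp1bb stood at 1.02 FPKM, as did those of Rasa4 and Tcf20. Just outside it were Cbfa2t2 at 0.995, Cd163 at 0.991 and 2700049A03Rik at 0.989 FPKM.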

How the data were processed

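RNA of 2 WT and 2 Srf KO samples was sequenced from TruSeq RNA v2 libraries, per the labels' protocols. The tools were Cufflinks 2.0.0, TopHat2 2.0.0 and CASAVA 1.8.1 with the mm10 build, per the submitters' processing notes, which give no settings here. The kit does not mark strand, so overlapping genes cannot be told apart. The authors deposited FPKM, 1 value per genotype. Per the file headers the deposited log2 fold puts WT over KO, and its sign was reversed. Where a genotype was at 0 the authors' fold is a placeholder and was not used. The test statistic is a score the authors deposited, as are the p-value and the q-value, printed as adjusted p. For coding sequences the p-value was checked to be the normal tail of the statistic and the q-value its Benjamini-Hochberg adjustment.

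A test on per-sample values was not possible, so the authors' calls and the shares are given as description. The planned analysis was otherwise kept. The members, gene lists and marker lists were chosen with earlier results of these data known. The rule named the 15 members with the largest change of share and up to 10 with a different leading coding sequence, both with at least 5 FPKM summed in each genotype, up to 5 per list, up to 10 with opposite calls, those at the 1 FPKM edge, the 5 most abundant, and Srf. A coding sequence was tied to a RefSeq transcript where the FPKM in the isoform table was equal in both genotypes (relative tolerance 2e-05), which matched 1598 of 1656, and 1565 had a GENCODE M21 structure. The share calculation was checked on simulated data. Depth is unknown. Alternatives were other FPKM minimums, thresholds and filters. Calculations used pandas 2.3.3, scipy 1.17.1 and numpy 2.4.6 in Python 3.11.15, and plots matplotlib 3.10.9. Some results that the rule for named genes picked are not reported here.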

Additional observations from a re-analysis of the deposited data

How the results depend on the processing

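Of 40 alternative values, 32 stayed within 1.5 times the reported count. With a minimum of 5 FPKM for the 2 coding sequences, 300 members remained, of which 159 (53%) changed by 10 points or more and 83 (27.7%) had a different leading coding sequence, with 159 coding sequences and 117 genes called by the authors' deposited table. With a change of 20 points or more there were 183 members. At an adjusted p of at most 0.01, 179 coding sequences were called in the authors' deposited table and 4 members had opposite calls. With a 2-fold minimum, 68 member genes were called. The members whose summed CDS FPKM matched the gene within 1 percent, and those left without pairs of equal GENCODE intervals, were alternatives chosen after seeing the data, and each gave counts within 1.5 times. No paired analysis was possible because the tables hold 1 pooled value per genotype, and leaving out a sample was not run for the same reason. Depth is unknown, and no share has an error.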
